A study of Mus musculus with 31 samples.

Results

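The 10 genes described here encode the core of the mitochondrial beta-oxidation of long-chain fatty acids: Cpt2, Slc25a20, Acadm, Acadl, Hadha, Hadhb, Decr1, Ech1, Eci1 and Etfdh. They were chosen by name and function, with earlier results of these data known. Each had a probe set with its own gene symbol on the array and passed the filter on dim genes. All 10 are thus among the 12795 genes tested, of 18820 with such a probe set. Expression was measured on 31 single-colour arrays, 1 per sample, of RNA from the scraped lining of the colon. The mice were male C57Bl/6J animals with no transgene, aged 13 weeks at sampling and housed singly. Their age at the start is given as 8 weeks. They ate a semi-synthetic palm-oil diet that gave 10% (low-fat diet, LFD) or 45% (high-fat diet, HFD) of its energy as fat, for 2 weeks before the infusions and during them. On 6 consecutive days every mouse was sedated and given 80 µL of saline rectally, either plain or containing 100 mM of sodium acetate, sodium propionate or sodium butyrate, and the colon was removed 4 h after the last infusion. The 8 groups are saline LFD, acetate LFD, propionate LFD, butyrate LFD, saline HFD, acetate HFD, propionate HFD and butyrate HFD, each with 4 arrays except acetate LFD with 3, which makes 15 arrays on LFD and 16 on HFD. The labels speak of 6 mice a group without tying an array to a mouse, so the p-values measure the spread between these samples.

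Beta-oxidation shortens a fatty acid by a pair of carbons per turn inside the mitochondrion and hands electrons to the respiratory chain. Long-chain acyl groups enter the matrix bound to carnitine, are oxidised by acyl-CoA dehydrogenases, and then pass through hydratase, dehydrogenase and thiolase steps, with auxiliary enzymes that move or reduce double bonds of unsaturated fatty acids. Colonocytes are known to draw much of their energy from bacterial butyrate, itself oxidised in the mitochondrion, and fatty acids activate the nuclear receptor PPAR alpha, of which many genes of this pathway are known targets.

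Start sites were read first, because Hadha and Hadhb, the subunits of 1 enzyme, lie head to head and because the gene called for diet, Acadl, has the most GC-rich start of the genes with a window. RefSeq windows of 300 bases (250 before to 50 after each gene's start, mouse build GRCm38.p6) were at hand for 9 of the 10 genes, all but Decr1. The 4 windows below are printed 5′ to 3′ on the gene's own strand, from chr1:66863260-66863559 (minus strand) for Acadl, chr5:30154931-30155230 (minus) for Hadha, chr5:30155003-30155302 (plus) for Hadhb and chr3:153944594-153944893 (minus) for Acadm. Capitals mark matches, on either strand, to GGGCGG (the core of the GC box bound by Sp factors), AGGTCA (the half-site of nuclear receptors) or CCAAT.
Acadl: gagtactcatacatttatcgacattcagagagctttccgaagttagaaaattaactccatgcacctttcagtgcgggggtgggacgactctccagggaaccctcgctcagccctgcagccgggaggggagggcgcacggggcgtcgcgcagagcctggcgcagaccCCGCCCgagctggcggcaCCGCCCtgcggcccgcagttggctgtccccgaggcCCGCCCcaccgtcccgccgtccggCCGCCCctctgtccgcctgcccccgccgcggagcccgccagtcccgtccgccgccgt
Hadha: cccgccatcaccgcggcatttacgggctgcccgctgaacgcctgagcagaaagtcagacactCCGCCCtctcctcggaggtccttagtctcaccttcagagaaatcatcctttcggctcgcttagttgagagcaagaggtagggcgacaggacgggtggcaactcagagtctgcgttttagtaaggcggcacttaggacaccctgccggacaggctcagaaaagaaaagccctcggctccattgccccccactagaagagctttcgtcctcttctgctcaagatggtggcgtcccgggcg
Hadhb: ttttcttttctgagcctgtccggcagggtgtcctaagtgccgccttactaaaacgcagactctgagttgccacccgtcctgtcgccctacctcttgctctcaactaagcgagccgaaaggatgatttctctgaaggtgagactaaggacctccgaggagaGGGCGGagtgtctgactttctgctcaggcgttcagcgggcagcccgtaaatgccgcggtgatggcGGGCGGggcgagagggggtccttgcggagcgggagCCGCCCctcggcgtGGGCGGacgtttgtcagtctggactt
Acadm: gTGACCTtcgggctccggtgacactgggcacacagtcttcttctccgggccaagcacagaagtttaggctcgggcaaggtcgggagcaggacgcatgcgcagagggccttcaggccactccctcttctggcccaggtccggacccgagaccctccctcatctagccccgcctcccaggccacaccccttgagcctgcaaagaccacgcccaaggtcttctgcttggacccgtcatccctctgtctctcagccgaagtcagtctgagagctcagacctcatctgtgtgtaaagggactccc
The starts of Hadha and Hadhb are 273 bases apart and their windows share 228 bases, so that most of each window is the opposite strand of the other's. The Acadl window holds 4 matches to GGGCGG, all on the opposite strand, at -84, -66, -31 and -7, counted from the gene's first base as 1, with the base before it as -1. Its GC content of 70.3% exceeds that of 90.9% of the 32851 windows of this length, whose median is 52.7%. GGGCGG was present in 8 of the 9 windows, all but that of Acadm, against 35.7% of all windows. The only match in the Hadha window, at -188, is the same site as the Hadhb match at -90, read on the other strand. The share of all windows includes genes not tested here, and the share among genes of like level was not taken. AGGTCA was present in the Acadm window alone, on the opposite strand at -249, against 16.3% of all windows, and there it extends to AAGGTCA, found in 4.72%. A direct repeat of AGGNCA with a single N between the copies, the form bound by PPAR, was in none of the 9 and in 0.381% of all. CCAAT was in the Etfdh window (37.4% of all), and the TATA box TATAAA was in none of the 9 (13.6% of all). A match describes letters in these windows and is no evidence of binding.

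The deposited values had array medians of 5.14 to 5.19 on the log2 scale and correlations of 0.987 to 0.994 within groups. RMA normalization brings the arrays to a common scale, so the medians do not show whether the arrays were alike in depth of signal. A list of 10 colonocyte markers averaged 11.39 to 11.63 on every array, so the labelled tissue is seen in its markers. Certain arrays stood apart in transcripts of other tissues. The mean of 15 genes of small-intestinal lipid absorption reached 8.32 to 8.75 on propionate LFD 2, saline HFD 2 and both saline LFD 2 and saline LFD 3, and stayed at or under 6.94 on every other array. The mean of 8 smooth muscle genes reached 6.8 to 7.1 on the first 2 saline HFD replicates and no more than 6.17 on any other array. The mean of 8 adipocyte genes reached 7.05 to 7.19 on saline LFD 1 and butyrate LFD 2, with the remaining arrays at 6.7 or less. In these bulk samples fewer cells of a type and less RNA per cell cannot be told apart.

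Acadl was the gene of the 10 that was called higher on HFD. It encodes long-chain acyl-CoA dehydrogenase, which takes the first oxidation step of the spiral, and lies at chr1:66830839-66863309. Its values ran from 8.90 to 9.42 on the 15 LFD arrays, with a median of 9.04, and from 9.04 to 9.45 on the 16 HFD arrays, with a median of 9.26. On 14 of the 16 HFD arrays Acadl exceeded the mean of the LFD group with the same infusion, although the ranges of the diets overlap. The mean of the 4 within-infusion differences was a log2 of 0.18 ± 0.044 (SE; 95% interval 0.09 to 0.27), a level 13.1% higher on HFD (adjusted p = 0.0291, moderated test of limma with Benjamini-Hochberg adjustment over all genes tested). Acadl was the only 1 of the 10 past the adjusted threshold of 0.05, which 2.70% of all genes tested passed for diet over all infusions, 1.53% as higher on HFD.

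Within single infusions, Acadl was called under propionate. The propionate LFD arrays read 9.09, 8.99, 8.90 and 8.97, and the propionate HFD arrays read 9.36, 9.27, 9.45 and 9.27. Every HFD array of this pair was above every LFD array. The log2 difference was 0.35 ± 0.086 (95% interval 0.17 to 0.52), a level 27.2% higher (adjusted p = 0.0215). Of all genes tested 6.87% passed in this comparison and 2.05% passed as higher on HFD, while 5.22% had groups standing apart in this direction.

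Under the other infusions the groups overlapped. The saline arrays read 9.13, 9.11, 9.18 and 9.01 on LFD and 9.23, 9.04, 9.33 and 9.13 on HFD, a difference of 0.08 ± 0.086 (adjusted p = 0.848). Leaving out 1 array moved it to between 0.0293 (without saline HFD 3) and 0.125 (without saline HFD 2), and it was 0.163 with the small-intestine-rich arrays left out. The acetate arrays read 9.42, 8.98 and 8.97 on LFD and 9.38, 9.25, 9.40 and 9.16 on HFD, a difference of 0.18 ± 0.093 (adjusted p = 0.674). Acetate LFD 1, at 9.42, was the highest LFD array of Acadl, and the difference was 0.325 without it and 0.101 without acetate LFD 3. The butyrate arrays read 9.04, 9.16, 8.97 and 9.16 on LFD and 9.25, 9.04, 9.33 and 9.13 on HFD, a difference of 0.11 ± 0.086 (adjusted p = 1), which was 0.0572 without butyrate HFD 3 and 0.068 without butyrate LFD 3. Against saline, propionate was at -0.12 ± 0.086 on LFD and 0.15 ± 0.086 on HFD, neither past the threshold. The test of the difference between these responses gave 0.27 ± 0.122 (adjusted p = 0.347), so a response to propionate that depends on the diet was not called for Acadl, and 12.8% of genes had an unadjusted p under 0.05 in that test.

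The call of Acadl for diet over all infusions ended on leaving out any of saline LFD 4, acetate LFD 2, acetate LFD 3, butyrate LFD 3, saline HFD 1, saline HFD 3, acetate HFD 1, propionate HFD 3 or butyrate HFD 3, with values of 0.158 to 0.173 and adjusted p from 0.0515 to 0.0702. Its call under propionate ended without propionate LFD 3 (0.318, adjusted p = 0.0865), propionate LFD 4 (0.342, 0.0655), propionate HFD 2 (0.371, 0.0621) or propionate HFD 3 (0.311, 0.0824). An adjusted p depends on all genes tested, and the share of all genes called in these fits is not given here. Marker lists also differed between the diets over all infusions, where 52.4% of all genes tested lay above 0. Below 0 were 14 of 15 small-intestinal genes (median -0.29), 6 of 8 adipocyte genes (median -0.24) and 7 of 10 colonocyte genes (median -0.07). Above 0 were 8 of 8 smooth muscle genes (median 0.12), 7 of 7 leukocyte genes (median 0.20) and 4 of 4 distal colon genes (median 0.30). The arrays that stood apart enter these values, and the shifts were not alike under each infusion. From LFD to HFD the smooth muscle mean went from 5.72 to 6.24 under saline and 5.43 to 5.46 under acetate. It went from 5.7 to 5.51 under propionate and 5.35 to 5.62 under butyrate. Among the marker genes Slc5a1, the intestinal sodium-glucose cotransporter, was called lower (-0.16 ± 0.045, adjusted p = 0.0494). Pck1, a gluconeogenic enzyme, was called higher (0.29 ± 0.078, adjusted p = 0.0386). These calls ended on leaving out any of 22 and of 19 of the 31 arrays. With the 4 small-intestine-rich arrays left out Acadl stood at 0.198 (adjusted p = 0.028), and without those high in smooth muscle at 0.189 (adjusted p = 0.049). Under propionate the mean of the small-intestinal list was 6.68 to 8.75 on LFD and 6.48 to 6.83 on HFD, and without the arrays high in it the difference of Acadl was 0.347 (adjusted p = 0.04). The part of the leukocyte, adipocyte, colonocyte and distal colon transcripts in the result was not tested.

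**Figure D1:**
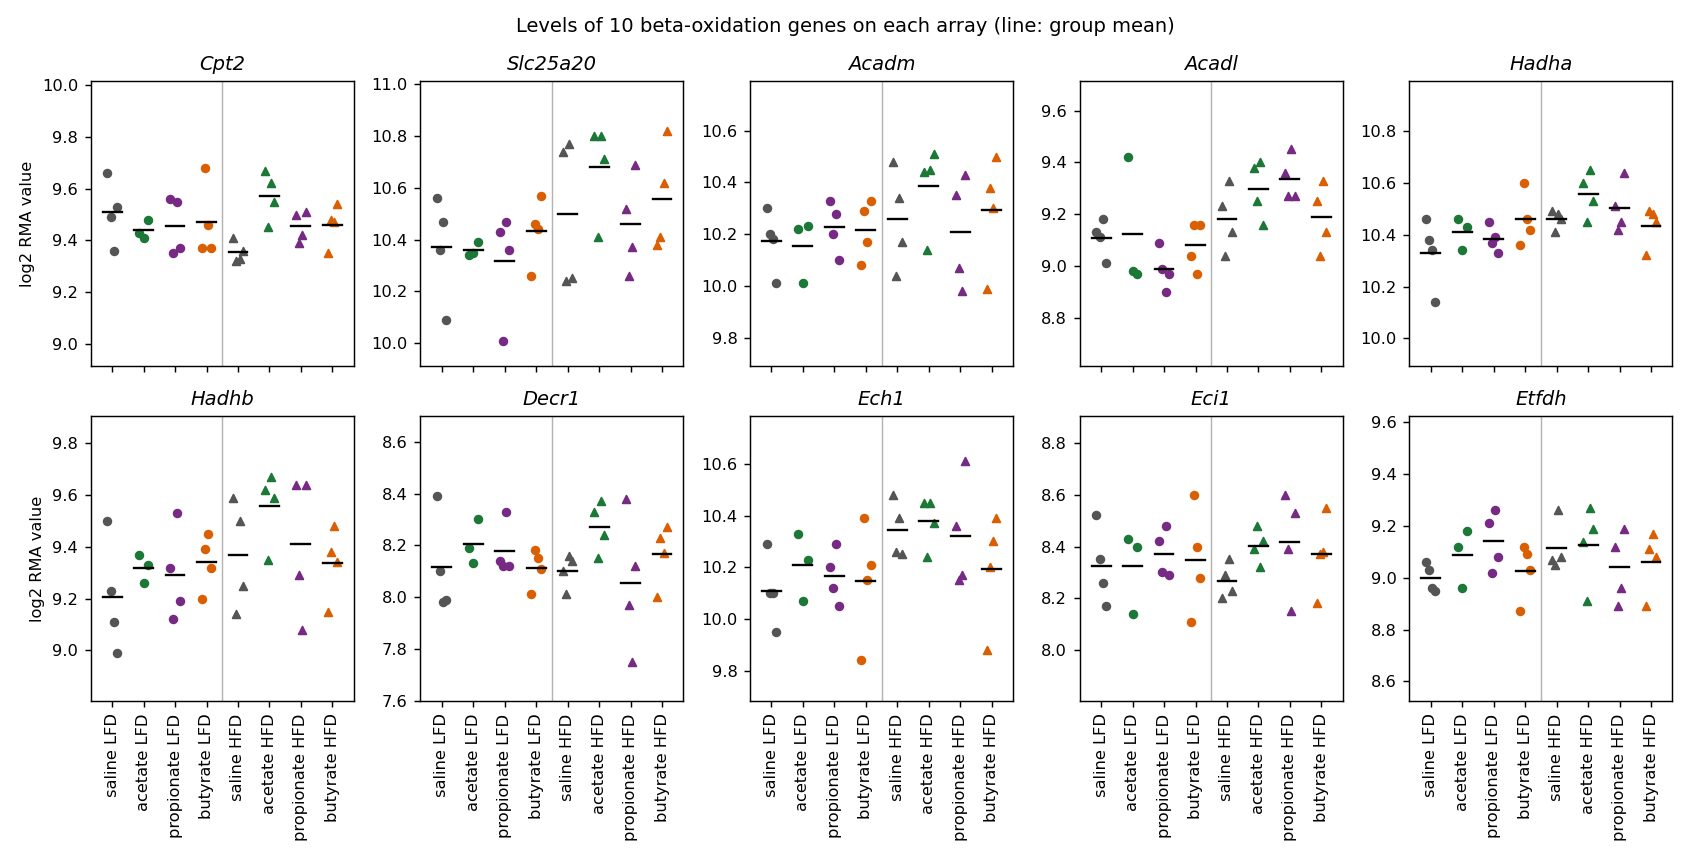
Log2 RMA values of the 10 genes (1 panel each, vertical axis) on each array of the 8 groups (horizontal axis). Circles are LFD arrays, triangles are HFD arrays and lines are group means. Acadl on the propionate arrays reads 8.90 to 9.09 on LFD and 9.27 to 9.45 on HFD, with no overlap. Each panel is centred on its gene's mean with the same span, since levels of different probe sets cannot be compared.

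Neither gene of the carnitine shuttle was called for diet. Cpt2 (chr4:107903982-107923589) encodes carnitine palmitoyltransferase 2, which hands the acyl group back to CoA inside the inner membrane. Its diet difference over all infusions was -0.01 ± 0.036 (95% interval -0.08 to 0.07, adjusted p = 0.916), and the HFD arrays were above their LFD group's mean on 8 of 16. Slc25a20 (chr9:108662136-108684642) encodes the translocase that carries acylcarnitine across that membrane. It ran from 10.01 to 10.57 on LFD (median 10.39) and from 10.24 to 10.82 on HFD (median 10.57), and 8 HFD arrays exceeded the highest LFD array. Its difference was 0.18 ± 0.067 (95% interval 0.04 to 0.32, adjusted p = 0.117), as large as that of Acadl with a wider error, and did not pass.

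Cpt2 had the smallest p of the 10 genes for acetate against saline on HFD. The saline HFD arrays read 9.41, 9.32, 9.33 and 9.36, the lowest group of Cpt2, and the acetate HFD arrays read 9.67, 9.45, 9.62 and 9.55, the highest. These groups did not overlap, which held in this direction for 0.969% of genes. The difference was 0.22 ± 0.071 (95% interval 0.08 to 0.37, adjusted p = 1), a value with an unadjusted p under 0.05, but no gene passed between acetate and saline on HFD (0 called of 12795, with 2.51% at an unadjusted p under 0.05). On LFD the saline arrays read 9.66, 9.49, 9.36 and 9.53 and the acetate arrays 9.43, 9.41 and 9.48. The difference between the acetate responses on the diets, 0.29 ± 0.104 (adjusted p = 1), did not pass; 0.844% of genes had an unadjusted p under 0.05 in that test. Between the saline groups the diet difference of Cpt2 was -0.15 ± 0.071 (adjusted p = 0.677), with 0 of 4 HFD arrays above the LFD mean. The saline HFD group holds the 2 arrays high in smooth muscle: all 8 smooth muscle genes lay below 0 for acetate against saline on HFD (median -0.87), the list averaging 5.26 to 7.1 on saline HFD and 5.31 to 5.76 on acetate HFD. Without these 2 arrays the acetate difference of Cpt2 was 0.232 ± 0.089 (adjusted p = 1).

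Slc25a20 was highest on acetate HFD too. Its acetate arrays read 10.34, 10.35 and 10.39 on LFD and 10.80, 10.41, 10.80 and 10.71 on HFD, with every HFD array above every LFD array (4.22% of genes in this direction). The difference of 0.32 ± 0.142 (adjusted p = 0.629) did not pass. Its saline HFD arrays fell into a high and a low pair, 10.74 and 10.77 against 10.24 and 10.25, with the largest SD of its 8 groups (0.294). Saline HFD 1 and 2, the arrays high in smooth muscle, were 1 in each pair.

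Acadm (chr3:153922353-153944643), the medium-chain acyl-CoA dehydrogenase that takes over as the chain shortens, ran from 10.01 to 10.33 on LFD and from 9.98 to 10.51 on HFD. Of its 16 HFD arrays 9 exceeded the highest LFD array, while the others ran from 9.98 to 10.30. The difference was 0.09 ± 0.056 (adjusted p = 0.354). Etfdh (chr3:79603788-79628767) encodes the oxidoreductase that passes the electrons of all acyl-CoA dehydrogenases to ubiquinone. It ran from 8.87 to 9.26 on LFD and from 8.89 to 9.27 on HFD, a difference of 0.02 ± 0.042 (95% interval -0.06 to 0.11, adjusted p = 0.802). The long-chain dehydrogenase was thus called and Acadm and Etfdh were not, and the difference between these genes was not tested.

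Hadha (chr5:30119423-30154980) and Hadhb (chr5:30155253-30184593) encode the alpha and beta subunits of the mitochondrial trifunctional protein, which carries out the hydratase, dehydrogenase and thiolase steps on long chains. Hadha read 10.14 to 10.60 on LFD (median 10.39) and 10.32 to 10.65 on HFD (median 10.48), and 14 of 16 HFD arrays were above their LFD group's mean. Its difference was 0.09 ± 0.033 (95% interval 0.02 to 0.16, adjusted p = 0.1), the second smallest p of the 10. Hadhb read 8.99 to 9.53 on LFD (median 9.32) and 9.08 to 9.67 on HFD (median 9.43), a difference of 0.13 ± 0.062 (adjusted p = 0.224). Neither passed the threshold. A second probe set of Hadhb gave 0.14 and correlated with the first at r = 0.994. The sequences that these probe sets read are not known here, so the second is no independent check. Both genes were lowest on saline LFD, where Hadha read 10.46, 10.38, 10.34 and 10.14 and Hadhb 9.50, 9.23, 9.11 and 8.99, and highest on acetate HFD, where Hadha read 10.60, 10.45, 10.65 and 10.53 and Hadhb 9.62, 9.35, 9.67 and 9.59. The arrays keep nearly the same order in both genes within these groups.

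None of the 3 auxiliary enzymes for unsaturated fatty acids was called for diet. Ech1 (chr7:28825338-28832239), a dienoyl-CoA isomerase, read 9.84 to 10.39 on LFD (median 10.15) and 9.88 to 10.61 on HFD (median 10.33). Its difference was 0.15 ± 0.057 (95% interval 0.03 to 0.27, adjusted p = 0.124), with 14 of 16 HFD arrays above their LFD group's mean. Under saline it was 0.23 ± 0.112 (adjusted p = 0.684), from 10.29, 10.10, 10.10 and 9.95 on LFD to 10.48, 10.26, 10.39 and 10.25 on HFD. Decr1 (chr4:15917240-15945377), the dienoyl-CoA reductase, stood at -0.01 ± 0.051 (95% interval -0.11 to 0.10, adjusted p = 0.962) and Eci1 (chr17:24426683-24439316), the enoyl-CoA isomerase, at 0.02 ± 0.051 (95% interval -0.08 to 0.13, adjusted p = 0.823). Decr1 spread widest on propionate HFD, with 8.38, 7.97, 7.75 and 8.12, against 8.33, 8.15, 8.37 and 8.24 on acetate HFD.

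**Figure D2:**
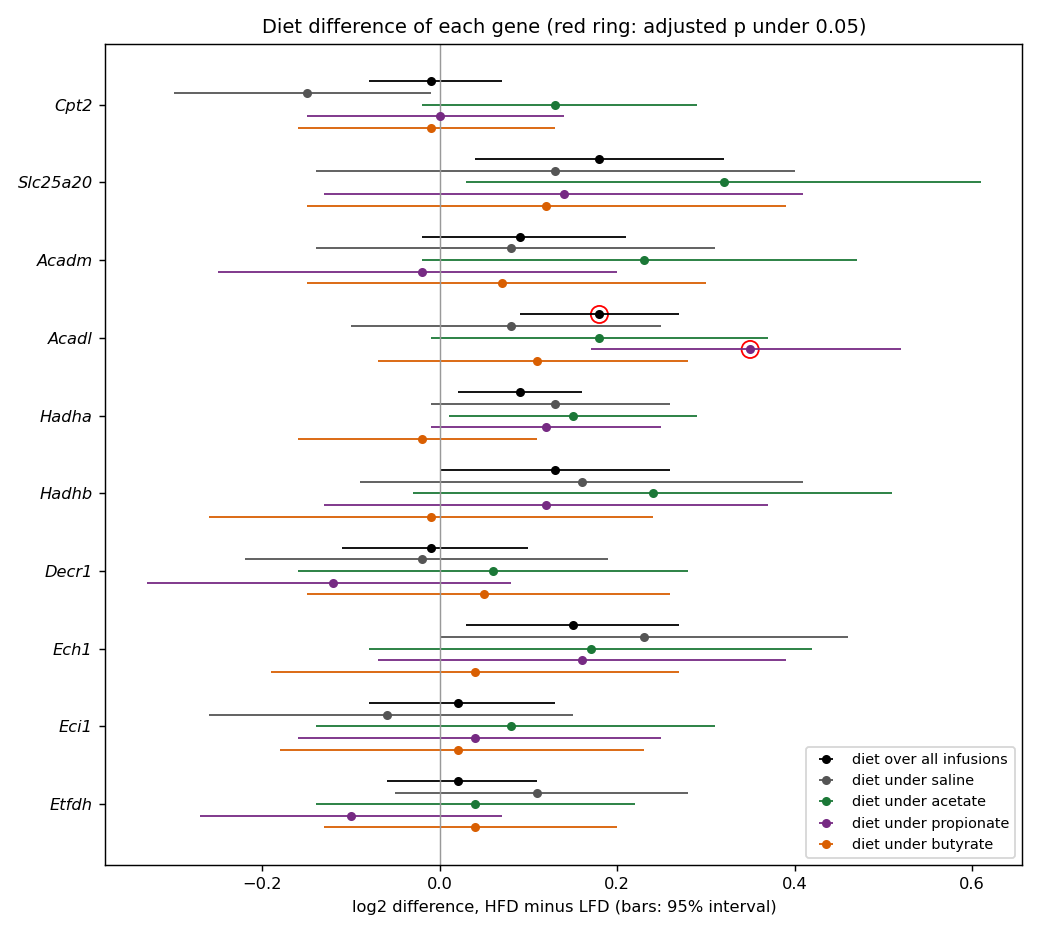
Log2 difference between HFD and LFD (horizontal axis) of each gene (vertical axis), over all infusions and under each infusion. Points are differences and bars are 95% intervals of the fit. The rings mark the 2 values past an adjusted p of 0.05, both of Acadl, at 0.18 over all infusions and 0.35 under propionate.

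Across the 10 genes, 8 had a diet difference above 0 over all infusions, against 52.4% of all genes tested, and their median was 0.09 against 0.0051. An unadjusted p under 0.05 was reached by 5 of 10 (Slc25a20, Acadl, Hadha, Hadhb and Ech1), all higher on HFD, against 21.7% of all genes. By infusion, all 10 were above 0 under acetate (52.7% of all genes), with a median of 0.16 and a range of 0.04 to 0.32, and 2 had an unadjusted p under 0.05 (Slc25a20 and Hadha; 7.71% of all genes). Under saline 2 did (Cpt2, lower, and Ech1, higher; 7.28% of all genes), under propionate Acadl alone (24.4% of all genes), and under butyrate none (3.67% of all genes), where the differences ran from -0.02 to 0.12. Under saline, acetate and butyrate 0 of the 10, and 0% of all genes, passed the adjusted threshold in limma. These comparisons split the same arrays that enter the mean over all infusions. The 10 genes also varied together over the arrays (median r of 0.646 between pairs, group means removed). Counts of genes on 1 side of 0, here and below, are therefore not counts of independent observations.

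The acids were given at the same concentration, volume and time, and differ in chain length by a carbon at each step from acetate to propionate to butyrate. Against saline, 0 of the 10 genes were called for any acid on either diet, and 0% of all genes were called in these 6 comparisons. The 60 differences ran from -0.15 to 0.22, with interval bounds from -0.38 to 0.45, and 1 had an unadjusted p under 0.05 (Cpt2 with acetate on HFD), which is 1.67% against 4.39% over all genes. Averaged over acids and diets, all 10 genes lay above 0 (51.8% of all genes did), with a median of 0.04 and a range of 0.01 to 0.09, and none was called. For acetate against saline on HFD all 10 also lay above 0 (50.7% of all genes), with a median of 0.13, although Etfdh at 0.01 turned to -0.04 without the arrays high in smooth muscle.

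Between acids the 60 differences of the 6 comparisons ran from -0.22 to 0.11, with interval bounds from -0.49 to 0.38. No gene of the 10 was called in any of these pairs, where the share of all genes called was 0.0625% for butyrate against propionate on HFD and 0% in the other 5. The smallest p was that of Decr1 for propionate against acetate on HFD, with a difference of -0.22 ± 0.0995 (adjusted p = 0.344; 13.2% of all genes had an unadjusted p under 0.05). With arrays weighted by their quality this became -0.306 (adjusted p = 0.0218), and the share of all genes called with that weighting is not given here. The intervals allow differences between the acids of the size seen for diet in Acadl, so the absence of calls does not show that the acids act alike. Nor was any of the 10 called for a difference of an acid's response between the diets (30 tests, differences from -0.22 to 0.29, 0% of all genes called).

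Set in order of their group means, 7 of the 10 genes were highest on acetate HFD (Cpt2, Slc25a20, Acadm, Hadha, Hadhb, Decr1 and Ech1), which was the highest group for 14.2% of all genes tested. Acadl and Eci1 were highest on propionate HFD and Etfdh on propionate LFD. The lowest group was saline LFD for 4 genes (Hadha, Hadhb, Ech1 and Etfdh). The spans from the lowest to the highest group mean were small, from 0.14 for Etfdh and 0.15 for Eci1 to 0.35 for Acadl and Hadhb and 0.36 for Slc25a20. Neighbours in these orders differed by less than the larger of their SDs in every gene but Cpt2, where acetate LFD (9.44 ± 0.0356 SD) stood above saline HFD (9.35 ± 0.0433 SD). A test of any difference among the 8 groups called none of the 10 and 0% of all genes, with 12.2% of genes at an unadjusted p under 0.05. Acadl had the smallest p of the 10 there (F = 3.46, adjusted p = 0.301). Group membership took up 50.9% of the variance of Acadl and 43.6% of that of Hadha, down to 12.2% for Eci1, where the median gene had 26.5% and 23.3% would be found with no differences.

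In all of these genes but Acadl the larger part of the variation was between arrays of the same group, and there they varied together. On butyrate LFD 2, acetate HFD 1, propionate HFD 1 and butyrate HFD 3 all 10 genes were above their median over the 31 arrays, while on acetate LFD 2, propionate LFD 2, propionate LFD 4 and butyrate LFD 1 none was. Of the 45 pairs of genes 44 had a Pearson r above 0, with a median of 0.565, and of 0.646 after group means were removed. The highest r was between Hadha and Ech1 (0.83), followed by Hadha and Hadhb (0.798). For Hadha and Hadhb, the neighbours with the shared start region printed above, Spearman's rho was 0.851. Their r was 0.739 without the 2 arrays farthest from the Hadha median, 0.734 on LFD and 0.822 on HFD. After group means were removed it was 0.724. Certain pairs on different chromosomes were higher on that measure, such as Acadm and Ech1 (0.853) and Hadhb and Decr1 (0.837). The part of the shared start in the correlation was not tested. Etfdh and 4930579G24Rik, whose windows share 189 bases, had an r of -0.189. These correlations are a description over 31 arrays that share their normalization, cell mixture and RNA quality, with no test.

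**Figure D3:**
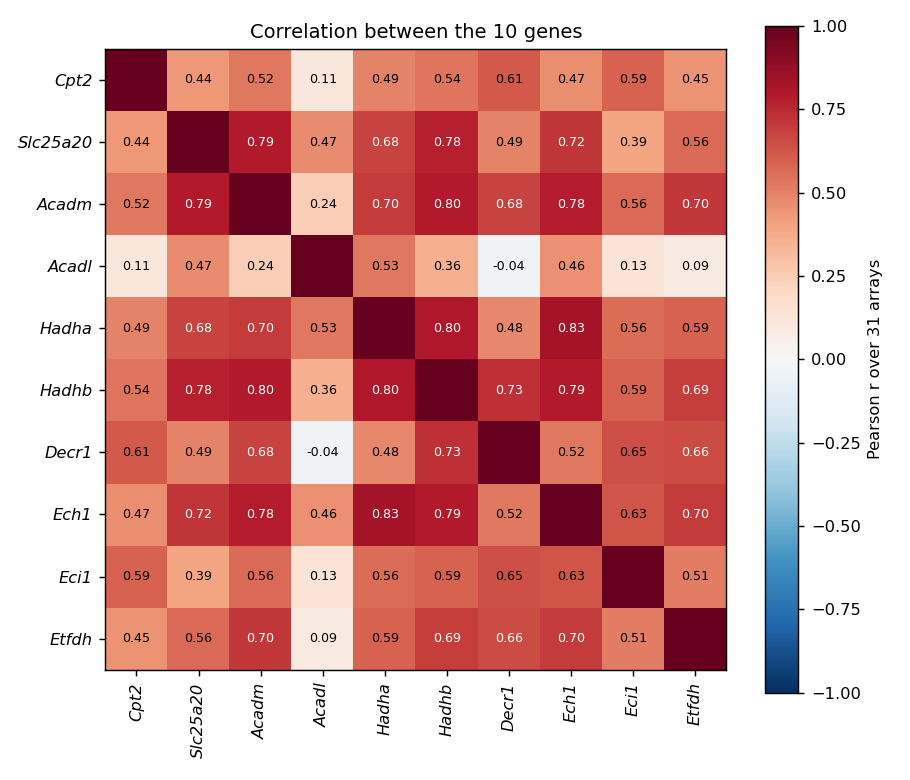
Pearson r over 31 arrays between each pair of the 10 genes (both axes), from blue (negative) to red (positive). Among the 9 genes other than Acadl r runs from 0.394 to 0.83, while the row of Acadl runs from -0.037 to 0.525.

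Acadl, the gene that was called, was the one that followed the others least. The 36 pairs among the other 9 had r from 0.394 to 0.83 with a median of 0.618, and the 9 pairs of Acadl had r from -0.037 to 0.525 with a median of 0.245. Over the arrays Acadl correlated with the mean of the other 9 at r = 0.339 (rho 0.323), at 0.542 without the 2 arrays farthest from its median, and at 0.191 after group means were removed. Propionate HFD 3 held the highest Acadl value of all arrays, 9.45, where Decr1 at 7.75 and Acadm at 9.98 were at their lowest of the 31 arrays. Propionate LFD 3 held the lowest Acadl value, 8.90, with Hadhb at 9.53, the highest of its group.

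**Figure D4:**
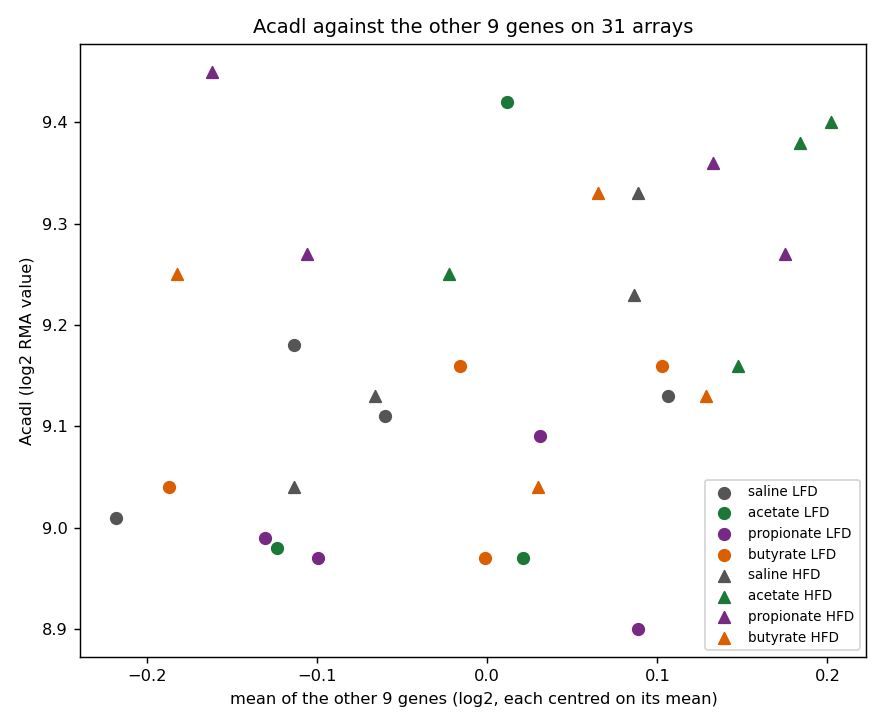
Acadl (vertical axis, log2 RMA value) against the mean of the other 9 genes, each centred on its own mean (horizontal axis, log2), with 1 point per array. Circles are LFD and triangles HFD, and r is 0.339 over the 31 arrays. The propionate LFD arrays lie at 9.09 or below and the propionate HFD arrays at 9.27 or above at any value of the other 9.

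The genes most alike in pattern to the mean of the 10, by Pearson r over 31 arrays, were Tbc1d15 (0.921), Nceh1 (0.917), Pxmp4 (0.895), Hsd17b11 (0.882) and Hsdl2 (0.874). After group means were removed they were Tbc1d15 (0.927), Nceh1 (0.913), Sult1d1 (0.902), Gpr107 (0.899) and Prkaa1 (0.886). Among gene lists, the mean of the 9 genes other than Acadl correlated at r = 0.847 with the mean of 17 other genes of mitochondrial beta-oxidation, at 0.838 with 15 of peroxisomal beta-oxidation and at 0.776 with 10 known PPAR targets (Cpt1a is in the first and the last of these lists). It correlated at 0.185 with 16 genes of the tricarboxylic acid cycle, which burns the acetyl-CoA that beta-oxidation delivers. Acadl correlated at 0.122, 0.248 and 0.472 with the first 3 of these lists and at -0.641 with the last.

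The wider pathway gave few calls for diet over all infusions. Of 17 other mitochondrial beta-oxidation genes 0 were called in limma (median difference 0, range -0.13 to 0.31, 4 with an unadjusted p under 0.05). Closest to the threshold were Acad12, an acyl-CoA dehydrogenase (0.31 ± 0.087, adjusted p = 0.0509), Acsl5, an acyl-CoA synthetase (-0.13, adjusted p = 0.066), and Cpt1a, which loads acyl groups onto carnitine ahead of Slc25a20 (0.14 ± 0.049, adjusted p = 0.0959). Of 10 PPAR targets 1 rose, Slc27a2, a very long-chain acyl-CoA synthetase (0.45 ± 0.097, adjusted p = 0.0199), 7 of 10 lay above 0 and the median was 0.20. Its call held on leaving out each of the 31 arrays. The next by p were Acot1, an acyl-CoA thioesterase (0.29 ± 0.096, adjusted p = 0.0794), Plin2, a lipid droplet coat protein (0.12 ± 0.041, adjusted p = 0.0881), and Angptl4, a secreted lipase inhibitor (0.39 ± 0.136, adjusted p = 0.0952). Of 3 ketone body enzymes Bdh1, the beta-hydroxybutyrate dehydrogenase, fell by 0.20 ± 0.046 (adjusted p = 0.0209), a call that ended without acetate LFD 3 or without the arrays high in smooth muscle, at an adjusted p of up to 0.051. No gene was called among 15 of peroxisomal beta-oxidation (median 0.05), 11 regulators such as Ppara, Ppard and Ppargc1a (median -0.02) and 16 of the tricarboxylic acid cycle (15 below 0, median -0.05), of which 1, 3 and 4 had an unadjusted p under 0.05.

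Under propionate more genes of the wider pathway were called, most of them of the tricarboxylic acid cycle. Of all genes tested 6.87% were called in this comparison, against 2.70% for diet over all infusions. Of the 17 other mitochondrial beta-oxidation genes 12 lay below 0 on HFD (median -0.11, against -0.021 over all genes), and Echs1, the hydratase of short chains, was called lower (-0.43 ± 0.104, adjusted p = 0.0189). Of 16 tricarboxylic acid cycle genes 14 lay below 0 (median -0.21) and 6 fell, where 4.82% of all genes were called lower: Dlst (-0.33 ± 0.075), Dld (-0.49 ± 0.111), Mdh2 (-0.24 ± 0.056), Idh3a (-0.46 ± 0.113), Cs, the citrate synthase (-0.25 ± 0.075) and Suclg2 (-0.33 ± 0.0997), with adjusted p from 0.0156 to 0.0465. Bdh1 fell by 0.41 ± 0.091 (adjusted p = 0.0156), with the other 2 ketone body enzymes also below 0. Called higher were Sirt3, the mitochondrial deacetylase among the regulators (0.32 ± 0.095, adjusted p = 0.0398), and Acaa1a, a peroxisomal thiolase (0.42 ± 0.125, adjusted p = 0.0421), 1 of 11 and 1 of 15, while 0 of 10 PPAR targets passed (1 at an unadjusted p under 0.05). The other 9 core genes stood between -0.12 and 0.16 in this comparison, none called. Slc5a1 was lower here too (-0.39 ± 0.088, adjusted p = 0.0156), with 13 of 15 small-intestinal genes below 0 (median -0.39). Leaving out propionate LFD 3, propionate HFD 2 or propionate HFD 3 ended the call of each of these genes, with adjusted p of up to 0.162. The adjustment depends on all genes tested, and the share of all genes called in these fits is not given here. Without propionate HFD 2 the differences of Bdh1 (-0.429) and Slc5a1 (-0.413) were larger than with it, both at an adjusted p of 0.0561 in limma. Others were smaller, such as that of Sirt3 (0.275). Suclg2 lost its call on leaving out any of 15 arrays, Cs of 7 and Sirt3 and Acaa1a of 6 each, and these 4 also lost it under 3 to 5 of 11 other settings.

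**Figure D5:**
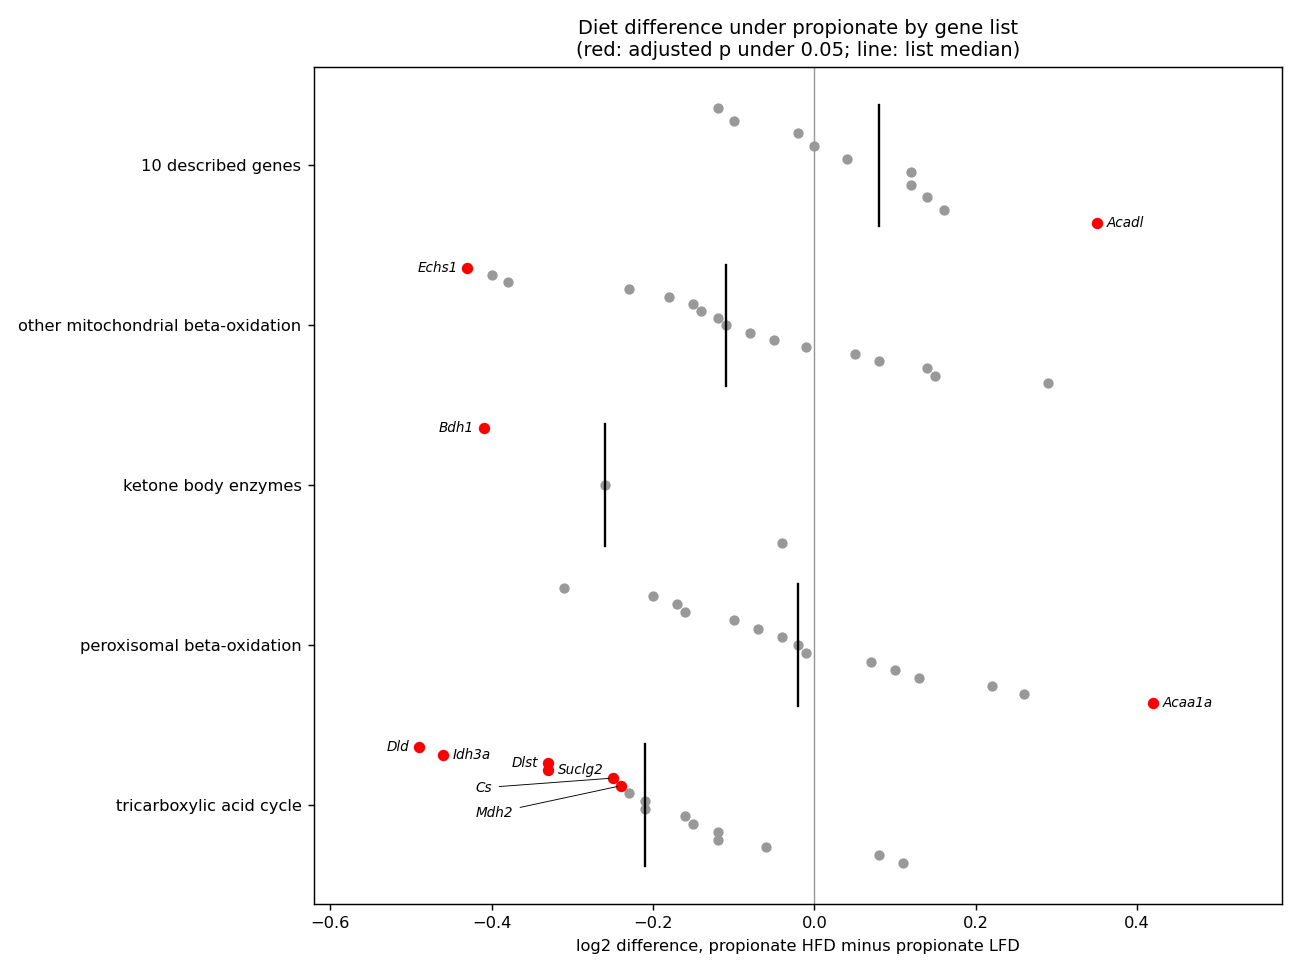
Log2 difference between propionate HFD and propionate LFD (horizontal axis) of the genes of 5 lists (vertical axis), spread vertically by rank within a list. Red points passed an adjusted p of 0.05 and lines are list medians. Acadl lies at 0.35 among the core genes, and the 6 red points of the tricarboxylic acid cycle lie between -0.49 and -0.24.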

How the data were processed

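RNA from 31 colon scrapings was measured on 31 arrays. The authors deposited log2 values for 35556 probe sets, made by RMA per the submitters' processing notes; its version and the array's genome build are not given there. Of these probe sets 21218 carry 1 gene symbol, 1881 several, and 12457 are not listed in the annotation used; each gene was taken from the one-symbol probe set with the highest mean. Genes at an intensity of at least 20 (log2 4.32) on 3 or more arrays were tested (12795). limma 3.58.1 in R 4.3.3 fitted 1 mean per group over all 31 arrays with a mean-variance trend, for 21 comparisons and an F test, two-sided, with Benjamini-Hochberg adjustment over all genes tested and a threshold of 0.05; intervals are 95%. Comparisons with saline on a diet share its arrays. Genes outside the 10 are named where their list's call, smallest p or likeness by correlation put them forward. The 10 genes and all lists were chosen with earlier results of these data known. Alternatives were other filters, variance models, array weights, all probe sets, quantile normalization, median centring, a replicate block, leaving out arrays with transcripts of other tissues, only the groups compared, the other Hadhb probe set and each array left out. The fit was tested on simulated data. The precision of array values is limited by the number of arrays.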

Additional observations from a re-analysis of the deposited data

Results flagged for a closer look

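In 2 of the 70 groups of 4 arrays examined (10 genes, 7 groups), 1 array stood far from the other 3, which chance gives in about 1 group in 20. Decr1 read 8.33 on propionate LFD 3 and 8.12 to 8.14 on the others of its group. Etfdh read 9.26 on saline HFD 3 and 9.05 to 9.08 on the others of its group.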

How the results depend on the processing

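The number of the 10 genes called was the same as reported in 949 of 964 recomputations over 22 counts. Most of these counts were 0 in comparisons where 0% of all genes passed, so the total says little about the calls of Acadl. With array weights the number called was 3 for diet over all infusions (Acadl, Hadha and Ech1) and 1 for propionate against acetate on HFD (Decr1). The adjustment depends on all genes tested, and the share of all genes called with array weights is not given here. These added calls are therefore no result particular to the 10 genes. Leaving out each array gave 0 to 1 for diet over all infusions and 0 to 1 for diet under propionate. The count of 1 was kept in 22 of 31 such fits for the former and in 27 of 31 for the latter. Under the 11 and 12 settings that leave out no single array, Acadl kept its calls, at 0.176 to 0.198 over all infusions and 0.326 to 0.418 under propionate. Near 0, the sign of 3 uncalled values turned. Cpt2 for diet over all infusions was 0.000834 with array weights, 0.00125 after quantile normalization and -0.0207 to 0.00899 on leaving out single arrays. Decr1 for the same comparison was 0.0063 without the arrays high in smooth muscle and -0.0325 to 0.0199 on leaving out single arrays. Etfdh for acetate against saline on HFD was -0.00669 with the small-intestine-rich arrays left out, -0.04 without those high in smooth muscle and -0.0326 to 0.0846 on leaving out single arrays. The cause was not tested. Replicate numbers shared between groups are not known to pair the arrays. Of 105 same-numbered pairs 42 had deviations correlated above 0.1 (median 0.0402, against -0.0123 for different numbers). Of 31 arrays 12 correlated best with their own number, and these values do not settle whether the numbers pair arrays. With the replicate block Acadl was 0.181 (adjusted p = 0.0196) over all infusions and 0.347 (adjusted p = 0.0164) under propionate, with 1 gene called in each, and no call of the 10 changed.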

Other observations

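Bdh1, the ketone body enzyme that was lower on HFD, had the lowest correlation with Acadl of all 12795 genes tested, at r = -0.883 over 31 arrays (rho -0.89; chosen after its values were seen, with no test). It was -0.85 without the 2 arrays farthest from the median of Acadl, -0.799 after group means were removed, -0.85 on LFD and -0.786 on HFD. Bdh1 read 9.42, 9.37, 9.57 and 9.46 on propionate LFD and 9.01, 9.11, 8.91 and 9.16 on propionate HFD. Propionate HFD 3 thus held the highest Acadl and the lowest Bdh1 value. The next lowest were Tpi1 (-0.81), Cfap298 (-0.809), Trim31 (-0.809) and Mrpl34 (-0.807).

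All 16 genes of the tricarboxylic acid cycle had an r with Acadl below 0, from -0.722 to -0.0473 with a median of -0.392, where 50.9% of all genes tested had one below 0. The arrays share their normalization and cell mixture, and the part of either in these correlations was not tested.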
